A study of Mus musculus with 6 samples.

Results

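The transcripts described here are 10 immediate early genes of the mouse, chosen by name among the 34745 genes of 1 expression table: Fos, Fosb, Jun, Junb, Egr1, Atf3, Ier2, Dusp1, Nr4a1 and Zfp36. RNA was sequenced from prostate tissue of 6 male C57BL/6 mice that entered the study at 6 to 8 weeks of age. The 3 mice of the T + E2 group carried a slow-release pellet of testosterone and estradiol under the skin for 12 weeks, replaced each month. This treatment serves as a hormone model of benign enlargement of the prostate. The 3 mice of the CON group underwent the same repeated operation, with the skin cut and closed without a pellet. They thus differed from the T + E2 group in both the hormones and the implant. The comparison of the groups asks how the transcriptome of the gland differs after long hormone treatment. All animals were killed with carbon dioxide and the prostate was taken at once after an inspection of the bladder, but no time in minutes is given in the sources used here, nor which lobes were used.

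Immediate early genes are transcribed within minutes of a stimulus, without new protein synthesis, because the factors at their promoters (CREB, the serum response factor and its ternary complex partners) are already present and only need to be phosphorylated. Many of their products are transcription factors. Proteins of the Fos and Jun families pair through leucine zippers to form AP-1, Egr1 is a zinc finger factor and Nr4a1 is an orphan nuclear receptor. Others close the response again, such as Dusp1, a phosphatase that inactivates MAP kinases, and Zfp36, a protein that binds AU-rich messenger RNAs and speeds their decay. Their messenger RNAs are short-lived, and in many tissues the level at any moment is known to react to growth factors, stress and handling of the tissue.

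The stretches upstream of 5 of the genes are shown because they carry the element that the members with a promoter window shared most often, the TGACG core of the cAMP response element (CRE). The RefSeq promoter windows (build GRCm38.p6) matched 8 of the 10 genes by symbol, all but Egr1 and Ier2. In the 250 bases before the start, TGACG was found on either strand in 6 of the 8, namely Atf3, Dusp1, Fos, Fosb, Junb and Nr4a1, against 17.8% of all 32851 windows. The full palindrome TGACGTCA, which contains the core on both strands, occurred in 1 of the 8 (Dusp1) against 1.55% of the windows. An AP-1 site (TGACTCA or TGAGTCA) occurred in none of the 8, against 4.46%. An EGR site (GCGGGGGCG or GCGTGGGCG) occurred in Fosb, Nr4a1 and Zfp36, against 3.06%, a CArG box in Zfp36 against 1.47%, and TATAAA in Fos against 12.4%. These are matches of letters on both strands and not measured binding. Elements farther upstream, and other motifs, were not searched. Each stretch is written 5′ to 3′ on the strand of the gene, with the cores (or CGTCA, its reverse complement) and the palindrome in capitals.
Fos, chr12:85473750-85473869, plus strand: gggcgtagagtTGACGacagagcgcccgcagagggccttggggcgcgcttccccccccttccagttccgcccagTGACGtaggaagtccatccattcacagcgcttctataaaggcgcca
Fosb, chr7:19310066-19310145, minus strand: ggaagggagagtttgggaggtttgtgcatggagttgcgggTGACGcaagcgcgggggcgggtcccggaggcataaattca
Junb, chr8:84978769-84978878, minus strand: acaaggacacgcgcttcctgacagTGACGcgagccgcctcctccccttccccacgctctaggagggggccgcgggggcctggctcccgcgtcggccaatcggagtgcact
Nr4a1, chr15:101266606-101266825, plus strand: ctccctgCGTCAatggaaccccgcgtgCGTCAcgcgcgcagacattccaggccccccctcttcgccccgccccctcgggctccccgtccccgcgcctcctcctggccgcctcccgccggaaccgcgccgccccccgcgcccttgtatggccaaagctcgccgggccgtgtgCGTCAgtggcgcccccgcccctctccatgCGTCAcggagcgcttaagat
Dusp1, chr17:26508573-26508672, minus strand: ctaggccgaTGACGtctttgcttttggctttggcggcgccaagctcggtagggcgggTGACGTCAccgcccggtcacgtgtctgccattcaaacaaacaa
Counted back from the transcription start, the 2 cores of Fos began at 129 and 66 bases on the coding strand, and those of Nr4a1 lay in 4 places between 233 and 36 bases, all on the opposite strand.

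Reads counted on genes totalled 14816146 to 16555549 per mouse, and 3 counts, taken as the floor of detection, corresponded to 0.183 to 0.208 CPM, the counts of a gene scaled to a common library total. The prostate markers Pbsn and Hoxb13 were present in every library, Pbsn at 12356 to 16646 CPM in the CON group and at 1259 to 1754 CPM in the T + E2 group, and Hoxb13 at 389 to 472 CPM. Transcripts of the seminal vesicle, the neighbouring gland, summed to 12082 FPKM (fragments per kilobase of gene, scaled to the library total) over 7 markers in CON mouse 2 and to 307.7 in T + E2 mouse 2, against 0.539 to 3.26 in the other mice, so the fit was repeated without both of these mice. The 10 genes took 0.0375 to 0.0425% of all counts in the CON group and 0.0237 to 0.0314% in the T + E2 group, which did not overlap.

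The immediate early genes were lower or level in the T + E2 group, and none was higher. Fos fell 3.47-fold, Egr1 2.95-fold and Nr4a1 2.21-fold, and these 3 passed both thresholds used for a differentially expressed gene (DEG), an adjusted p under 0.05 and a log2 fold change beyond 1. Jun and Junb passed the adjusted p with smaller falls, while Fosb, Dusp1, Ier2, Zfp36 and Atf3 did not pass. All 10 genes were expressed well enough to be tested. The 3 downregulated members compare with 526 downregulated genes among 15580 tested (3.38%), and the 5 members lower at the adjusted p alone compare with 1441 genes (9.25%). The 3 T + E2 mice all lay below the 3 CON mice for 6 members, which was so for 20.7% of all tested genes. The median log2 fold change of the 10 genes was -0.50, against -0.0021 over all tested genes. In bulk tissue, fewer cells that transcribe a gene and less RNA of it per cell cannot be told apart.

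**Figure D1:**
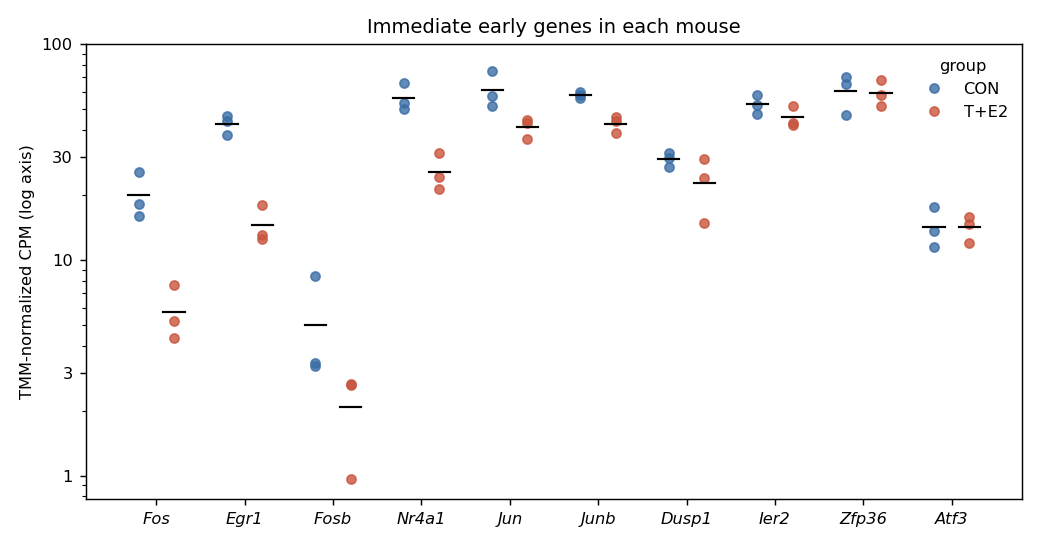
TMM-normalized CPM (log axis) of the 10 immediate early genes in each mouse, with CON in blue, T + E2 in red and the group mean as a bar, ordered from the lowest to the highest fold change. For Fos, Egr1, Fosb, Nr4a1, Jun and Junb all red points lie below all blue ones, while for Dusp1, Ier2, Zfp36 and Atf3 the groups overlap.

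Among the AP-1 subunits, Fos had the largest fall of the 10. Fos lies at chr12:85473890-85477273 (build GRCm38, plus strand, 4 exons) and encodes the classical partner of Jun. Its normalized level was 18.1, 25.6 and 16.0 CPM in CON mice 1 to 3 and 4.36, 5.18 and 7.67 CPM in T + E2 mice 1 to 3. The groups did not overlap, and the highest T + E2 mouse was below the lowest CON mouse by a wide gap. The group means were 19.9 ± 5.01 and 5.74 ± 1.73 CPM (SD, n = 3), and the log2 fold change was -1.79 with an SE of 0.25 (95% interval -2.38 to -1.21; edgeR quasi-likelihood test with Benjamini-Hochberg adjustment, adjusted p = 0.00243). The underlying reads were few but above the floor, at 255 to 389 counts in the CON group and 63 to 115 in the T + E2 group.

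Fosb (chr7:19302721-19310045, minus strand), a Fos relative known for the stable splice form that accumulates on repeated stimulation, was the least abundant member. It measured 3.31, 8.41 and 3.21 CPM in the CON group and 0.968, 2.62 and 2.67 CPM in the T + E2 group. The groups did not overlap, but CON mouse 2 stood well above the other CON mice and T + E2 mouse 1 well below the other T + E2 mice. With 50, 128 and 51 counts against 14, 43 and 40, the log2 fold change was -1.24 with an SE of 0.49 and the interval ran from -2.38 to -0.11. It did not pass after adjustment (edgeR quasi-likelihood test with Benjamini-Hochberg adjustment, adjusted p = 0.116), and without CON mouse 2 the log2 fold change was -0.64.

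Jun (chr4:95049034-95052222, minus strand, a gene of a single exon) encodes the AP-1 subunit that can pair with itself as well as with Fos proteins. Its level was 74.8, 51.8 and 57.5 CPM in the CON group and 36.2, 44.6 and 43.0 CPM in the T + E2 group. All T + E2 mice were below all CON mice, with the spread in the CON group set by mouse 1. The log2 fold change was -0.57 with an SE of 0.15 (edgeR quasi-likelihood test with Benjamini-Hochberg adjustment, adjusted p = 0.0339), but of the 6 fits that left out a single mouse only that without CON mouse 2 kept an adjusted p under 0.05. Without each of the other 5 mice the adjusted p by the same edgeR test was 0.0657 to 0.106, and without both mice that carried seminal vesicle transcripts it was 0.0524. An antisense gene, Junos, overlaps Jun. It held 23 to 40 counts per mouse, against 524 to 1130 for Jun, and since the use of strand in counting is not given in the sources used here, reads of the pair cannot be told apart.

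Junb (chr8:84976909-84978748, minus strand), a Jun relative known to restrain Jun in some settings, had the tightest values of the 10. It measured 56.2, 59.6 and 57.9 CPM in the CON group and 45.9, 38.6 and 43.8 CPM in the T + E2 group. The CON mice lay close together and all T + E2 mice lay below them. The log2 fold change was -0.44 with an SE of 0.09 (edgeR quasi-likelihood test with Benjamini-Hochberg adjustment, adjusted p = 0.0159), a fall of less than the 2-fold threshold for a DEG. Without CON mouse 2 its adjusted p by the same edgeR test was 0.0564, and without both mice that carried seminal vesicle transcripts it was 0.121.

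Egr1 (chr18:34859823-34864984, plus strand) encodes a zinc finger factor that binds GC-rich promoters and is induced through the MAP kinase and serum response factor route. Its level was 44.0, 46.5 and 37.9 CPM in the CON group and 12.5, 13.0 and 18.0 CPM in the T + E2 group. The groups were far apart compared with the spread within each, with means of 42.8 ± 4.40 and 14.5 ± 3.05 CPM (SD, n = 3). The log2 fold change was -1.56 with an SE of 0.16 (95% interval -1.93 to -1.20), and the adjusted p was the lowest of the 10 genes (edgeR quasi-likelihood test with Benjamini-Hochberg adjustment, 0.000526).

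Nr4a1 (chr15:101266846-101274792, plus strand), also called Nur77, encodes an orphan receptor of the nuclear receptor family whose activity follows its own level of transcription. It measured 49.9, 53.0 and 66.0 CPM in the CON group and 21.2, 24.1 and 31.2 CPM in the T + E2 group. The groups did not overlap, CON mouse 3 was the highest and T + E2 mouse 3 was the highest of its group. The means were 56.3 ± 8.56 and 25.5 ± 5.17 CPM (SD, n = 3), with a log2 fold change of -1.14 and an SE of 0.17 (95% interval -1.53 to -0.76; edgeR quasi-likelihood test with Benjamini-Hochberg adjustment, adjusted p = 0.00276). The interval reaches below the 2-fold threshold, and the smallest fall in the alternatives run was -1.01 on the log2 scale.

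Both feedback regulators overlapped between the groups. Dusp1 (chr17:26505590-26508519, minus strand) measured 31.2, 29.8 and 26.9 CPM in the CON group and 14.8, 23.9 and 29.2 CPM in the T + E2 group. The CON mice were close together, whereas the T + E2 mice ran from a low value in mouse 1 to a value inside the CON range in mouse 3. Its log2 fold change was -0.37 with an SE of 0.22 (95% interval -0.88 to 0.13; edgeR quasi-likelihood test with Benjamini-Hochberg adjustment, adjusted p = 0.269), and it was -0.14 without T + E2 mouse 1. Zfp36 (chr7:28376784-28379255, minus strand) measured 65.3, 70.3 and 46.9 CPM in the CON group and 57.8, 51.6 and 67.9 CPM in the T + E2 group. The mice of both groups were interleaved, and the log2 fold change was -0.04 (95% interval -0.43 to 0.34; edgeR quasi-likelihood test with Benjamini-Hochberg adjustment, adjusted p = 0.886), whose sign changed when single mice were left out. The antisense gene Gm44710 overlaps Zfp36 and was not analysed here.

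The last pair also overlapped. Atf3 (chr1:191170296-191218039, minus strand), a CREB family factor known as a stress-induced repressor, measured 17.6, 11.5 and 13.6 CPM in the CON group and 11.9, 15.8 and 14.7 CPM in the T + E2 group. The means were nearly the same, with a log2 fold change of -0.01 (95% interval -0.44 to 0.41; edgeR quasi-likelihood test with Benjamini-Hochberg adjustment, adjusted p = 0.970). On the linear scale that interval runs from 0.738 to 1.33 times the CON level. Ier2 (chr8:84661331-84662852, minus strand, a single exon), a small nuclear protein of the early response, measured 47.2, 58.2 and 51.9 CPM in the CON group and 43.0, 42.3 and 51.9 CPM in the T + E2 group. Here T + E2 mice 1 and 2 were below all CON mice and T + E2 mouse 3 was among them, with a log2 fold change of -0.20 (95% interval -0.47 to 0.08; edgeR quasi-likelihood test with Benjamini-Hochberg adjustment, adjusted p = 0.276).

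**Figure D2:**
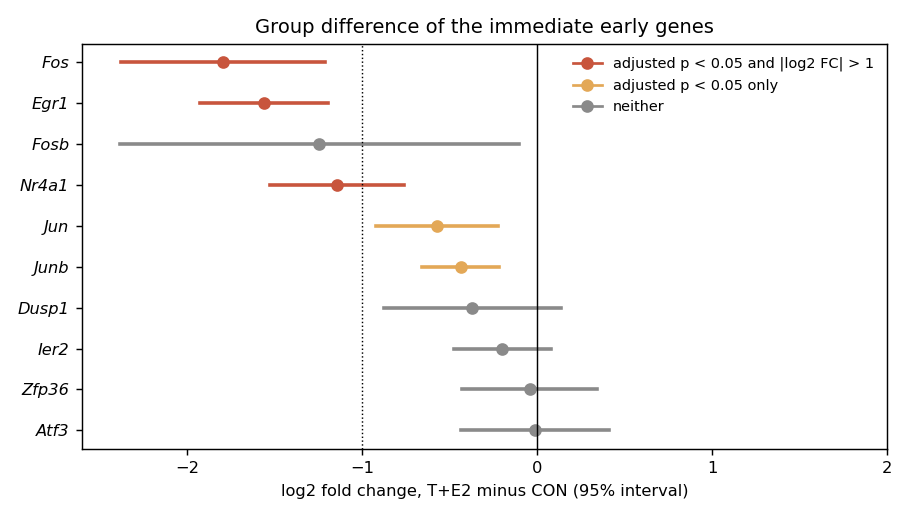
Log2 fold change (T + E2 minus CON, edgeR) of each immediate early gene with its 95% interval, for 3 mice per group; the dotted line marks -1. Fos, Egr1 and Nr4a1 (red) passed both thresholds, Jun and Junb (yellow) the adjusted p alone, and the intervals of Dusp1, Ier2, Zfp36 and Atf3 cross 0.

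The mice of a group were not alike. CON mouse 2 had the highest value of all 6 mice for 6 of the 10 genes and T + E2 mouse 1 the lowest for 6. T + E2 mouse 3 was the highest of its group for 7 genes. Averaged over the 10 genes, log2 CPM relative to the mean of the 6 mice was 0.37, 0.49 and 0.24 in CON mice 1 to 3 and -0.63, -0.36 and -0.11 in T + E2 mice 1 to 3. The groups thus kept their order in this average, with T + E2 mouse 3 nearest to the CON group. The SD of log2 CPM within groups was above the median of all tested genes (0.181) for 8 of the 10, from 0.0958 for Junb, which was larger than that of 14.6% of the tested genes, to 0.771 for Fosb, which was larger than that of 96.5%.

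**Figure D3:**
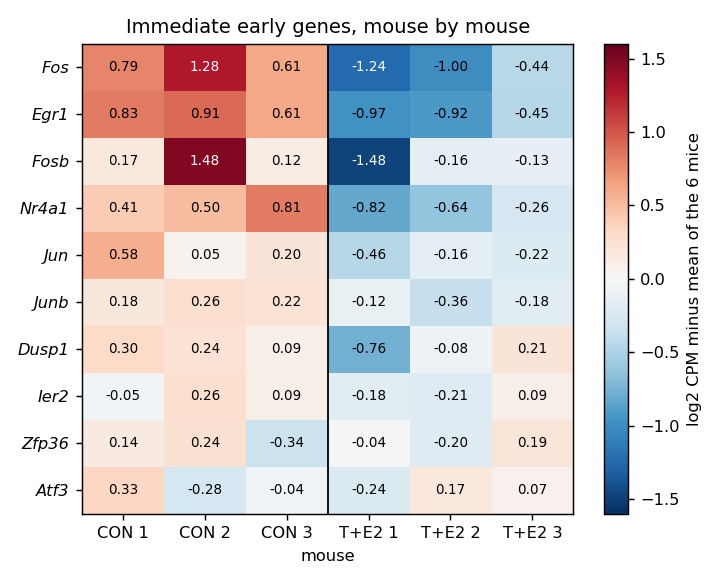
Log2 CPM of each immediate early gene in each mouse minus its mean over the 6 mice; red is above and blue below that mean. T + E2 mouse 1 is lowest for Fos (-1.24), Fosb (-1.48) and Dusp1 (-0.76), and the rows of Zfp36 and Atf3 mix signs within both groups.

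Members differed in how closely they followed the rest. Over the 6 mice, the Pearson correlation of a gene's log2 CPM with the mean of the other 9 was 0.978 for Fos, 0.957 for Egr1 and 0.901 for Nr4a1. It was 0.769 to 0.814 for Fosb, Jun, Junb, Ier2 and Dusp1, 0.268 for Zfp36 and 0.0469 for Atf3. The points share the 2 groups and the libraries, so these values are descriptions of 6 mice. Among genes outside the 10, those with the profile most like the mean of the 10 were H2afy (r = 0.999), Lrrn2, Pcbp3, Samd14, Trmu and Slc10a4 (r = 0.994 to 0.995). These 6 were picked for the highest r among 15580 tested genes. Their high r and their lower values in the T + E2 group follow from that pick. Slc10a4 and Lrrn2 were downregulated DEGs, at log2 fold changes of -1.87 and -1.04, where 3.38% of all tested genes were. H2afy differed little between the groups, at -0.10.

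Levels of different genes were compared per length, as the deposited FPKM. The gene lengths behind these FPKM are not given. For Egr1, Dusp1 and Fos, count, FPKM and library total imply a length beyond that of the whole locus. Their FPKM are thus low relative to the other genes, and the order below holds for the deposited values only. In the CON group the order was Ier2 (34.9 FPKM), Zfp36 (34.4), Junb (31.8), Nr4a1 (23.0), Jun (19.5), Dusp1 (5.77), Egr1 (5.76), Atf3 (5.63), Fos (5.33) and Fosb (1.35). Neighbours in this order overlapped between mice except Junb with Nr4a1, Jun with Dusp1, and Fos with Fosb. In the T + E2 group the order was Zfp36 (32.6 FPKM), Ier2 (29.7), Junb (22.9), Jun (12.8), Nr4a1 (10.2), Atf3 (5.44), Dusp1 (4.37), Egr1 (1.91), Fos (1.50) and Fosb (0.553). By these FPKM, Egr1 and Fos lay beside Atf3 and Dusp1 in the CON group. In the T + E2 group they lay below all values of these genes, the lowest of which was 2.75 FPKM for Dusp1 against at most 2.42 for Egr1. This placing depends on the lengths. By CPM, which use no length, Egr1 in the CON group (37.9 to 46.5) lay above Atf3 (11.5 to 17.6) and Dusp1 (26.9 to 31.2). In the T + E2 group the CPM of Egr1 overlapped those of both.

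The wider early response families did not move as 1 block. Of 75 further early response genes listed (other AP-1 subunits, the Egr and Nr4a families, MAP kinase phosphatases, the Zfp36 family and other serum-induced genes), 69 could be tested, of which 2 were downregulated and 1 was upregulated DEGs. At the adjusted p alone, 8 were lower and 10 higher, against 10.4% of all tested genes being higher and 9.25% lower, and their median log2 fold change was -0.03. Among all tested genes 7.64% were DEGs and 4.27% were upregulated.

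The upregulated one was Fosl2, which encodes Fra-2, a more stable partner of Jun proteins. It measured 43.8, 40.3 and 33.3 CPM in the CON group and 122.9, 134.7 and 160.6 CPM in the T + E2 group. All T + E2 mice were above all CON mice by more than 2-fold, and the log2 fold change was 1.83 with an SE of 0.14 (edgeR quasi-likelihood test with Benjamini-Hochberg adjustment, adjusted p = 0.000139). Per length, Fosl2 FPKM over Fos FPKM was 0.789, 0.515 and 0.679 in CON mice 1 to 3 and 9.21, 8.50 and 6.83 in T + E2 mice 1 to 3. By these FPKM, whose gene lengths are not given, Fos was the more abundant of the pair in every CON mouse and Fosl2 in every T + E2 mouse. An exact permutation test of the ratio gave a two-sided p of 0.1, the smallest that 3 against 3 mice can give. This ratio was chosen after the values had been seen. Each gene alone already separated the groups, in opposite directions, so this p was fixed in advance and adds no support.

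The downregulated DEGs outside the 10 were Batf3, an AP-1 family factor of dendritic cells, at 2.43 to 3.84 CPM in the CON group and 0.731 to 1.04 CPM in the T + E2 group (log2 fold change -1.90), and Nr4a2, the receptor closest to Nr4a1. Nr4a2 measured 12.3, 11.5 and 12.3 CPM in the CON group and 4.57, 4.32 and 7.54 CPM in the T + E2 group, so that the groups did not overlap (log2 fold change -1.13; edgeR quasi-likelihood test with Benjamini-Hochberg adjustment, adjusted p = 0.0106). Without T + E2 mouse 2 it fell just short of the fold threshold, at -0.99, and without both mice that carried seminal vesicle transcripts it no longer passed the adjusted p (-1.02, edgeR, adjusted p = 0.0762). The third receptor, Nr4a3, had a log2 fold change of 0.06 with an interval of -0.72 to 0.83. Egr3 was near the floor in the T + E2 group, at 0.183 to 0.667 CPM against 0.755 to 1.12 CPM, and did not pass (edgeR quasi-likelihood test with Benjamini-Hochberg adjustment, adjusted p = 0.0822). Without T + E2 mouse 3 its log2 fold change was -2.28 with an adjusted p of 0.0226 by the same edgeR test. Egr2 had a log2 fold change of 0.52 with overlapping groups, and the corepressors Nab1 and Nab2 were at -0.03 and -0.27 without passing.

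Of the other AP-1 subunits, Atf4, the factor of the integrated stress response, fell by 0.47 on the log2 scale and Jund was at 0.08 without passing. Among 9 tested MAP kinase phosphatases (the list includes Dusp1) none was a DEG, and at the adjusted p 3 were lower, Dusp10 (log2 fold change -0.87), Dusp8 (-0.81) and Dusp5 (-0.80), and Dusp16 was higher (0.48). The relatives of Zfp36, Zfp36l1 and Zfp36l2, did not pass, at -0.23 and -0.31. Of 5 tested messenger RNAs known to be held down by Zfp36 through AU-rich elements, none was a DEG and 1, Ier3, was higher at the adjusted p (0.43). All T + E2 mice lay above all CON mice for 3 of the 5 and below them for 2, Cxcl1 (-1.54) and Tnf (-1.05). Both were near the floor in the T + E2 group and did not pass. All T + E2 mice lay below for 20.7% of all tested genes. Over all tested genes, 9.25% were lower and 10.4% higher at the adjusted p.

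The 45 tested members of the group of other serum-induced genes held no DEG. At the adjusted p, 8 of them were higher and 2 lower, against 10.4% and 9.25% of all tested genes. Their median log2 fold change was 0.05. Those higher were Cebpd (0.99), Errfi1 (0.93), Id1 (0.88), Btg1 (0.74), Sgk1 (0.51), Ier3 (0.43), Id2 (0.42) and Gadd45a (0.41), and those lower were Srf (-0.40), the serum response factor itself, and Trib1 (-0.39). Cebpd, Errfi1 and Id1 lay close to the 2-fold threshold and passed it in fits without a mouse, Cebpd without CON mouse 1, T + E2 mouse 1 or T + E2 mouse 2, Errfi1 without CON mouse 1 or T + E2 mouse 1, and Id1 without CON mouse 2. Fos, Egr1 and Nr4a1 are induced by many of the same stimuli. The opposite sign of these 8 genes follows from how both sets were picked, as higher and as lower, and is not a separate result.

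**Figure D4:**
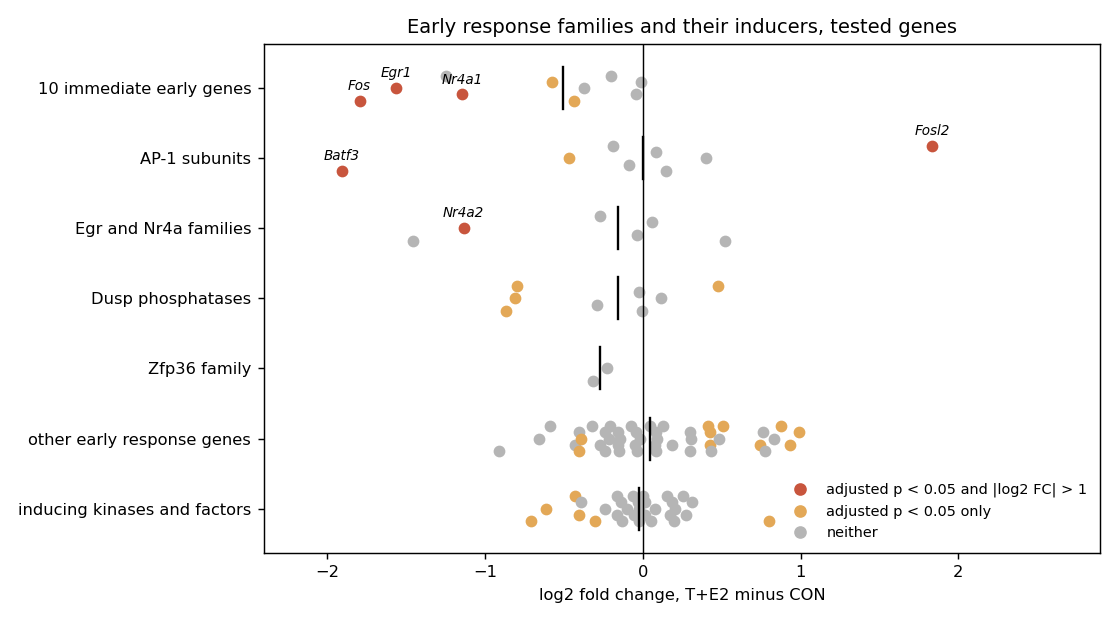
Log2 fold change (T + E2 minus CON) of the tested genes of each early response family and of the kinases and factors that induce them, with the 10 immediate early genes shown apart and left out of the other rows; black bars are medians. DEGs (red) are Fos, Egr1 and Nr4a1 in the top row, Batf3 and Fosl2 among AP-1 subunits and Nr4a2 in its family, and the other rows hold none.

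Of 31 tested transcripts of the kinases and factors upstream of these genes, none was a DEG, 5 were lower at the adjusted p and 1 was higher, with a median log2 fold change of -0.03. Among those lower were Mapk3, a MAP kinase (-0.61), Srf (-0.40), its coactivator Mkl2 (-0.43) and the CREB coactivator Crtc3 (-0.71), and the one higher was Elk3 (0.80), a ternary complex factor that can act as a repressor. Among 12 tested genes known as AP-1 targets, Cd44 was a downregulated DEG (-1.09) and Spp1, osteopontin, an upregulated one (1.35), and 3 were higher at the adjusted p. The call of Spp1 was lost without CON mouse 3, T + E2 mouse 2 or T + E2 mouse 3 (edgeR quasi-likelihood test with Benjamini-Hochberg adjustment, adjusted p = 0.0547 to 0.0662) and without both mice that carried seminal vesicle transcripts (0.109). Under limma on log2(FPKM + 1) neither Cd44 (-0.74) nor Spp1 (0.63) reached the fold threshold. Of 13 heat shock genes, none was a DEG and 2 were lower at the adjusted p, with a median of -0.09. Beside these lists, 9.25% of all tested genes were lower and 10.4% higher at the adjusted p, and 7.64% were DEGs.

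Marker transcripts of several cell types moved with the groups. Of 6 tested markers of prostate secretory cells, Pbsn, which encodes probasin (log2 fold change -3.29), and Tgm4, a transglutaminase (-2.91), were downregulated DEGs and Msmb (1.10) was an upregulated one. Among 5 luminal epithelial markers Epcam was an upregulated DEG (1.18), while Krt18 fell by 0.54 on the log2 scale and Cdh1 rose by 0.34. For 5 nerve and Schwann cell markers, the summed FPKM was 61.7 to 83.0 in the CON group. It was 16.5, 37.4 and 36.6 in T + E2 mice 1 to 3. Of these 5 markers, 3 were downregulated DEGs (3.38% of all tested genes were). For 5 mast cell markers the sum was 20.0 to 31.9 against 10.7 to 18.2 FPKM (1 downregulated DEG), and for 7 smooth muscle markers 1627 to 1952 against 1385 to 1418 FPKM (no DEG). Other sums were higher in every T + E2 mouse, as for 6 macrophage markers (27.5 to 36.8 against 39.7 to 60.7 FPKM, 2 upregulated DEGs), 5 urothelial markers (299 to 475 against 1025 to 1190 FPKM, 2 upregulated DEGs of 3 tested) and 5 red cell markers (41.0 to 50.7 against 98.0 to 336.8 FPKM, all 5 upregulated DEGs), where 4.27% of all tested genes were upregulated. The sums for 6 fibroblast markers, 5 endothelial markers and the 5 luminal epithelial markers overlapped between the groups. The part of these differences in the fall of Fos, Egr1 and Nr4a1 was not tested. None of these marker lists had a marker at 0 in all mice.

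Fos, Egr1 and Nr4a1 passed both thresholds in 16 of 16 alternatives, with log2 fold changes of -2.06 to -1.33, -1.75 to -1.22 and -1.31 to -1.01. Without both mice that carried seminal vesicle transcripts these 3 genes were DEGs, but Jun and Junb no longer passed the adjusted p, so that 3 members in place of 5 were lower by it. In that fit 3 of the 8 further early response genes that were lower at the adjusted p still passed it, and 4 of the 10 that were higher. Those that did not were Dusp5, Dusp8, Nr4a2, Srf and Trib1 among the lower and Cebpd, Dusp16, Gadd45a, Id2, Ier3 and Sgk1 among the higher. Fosl2 passed in 16 of 16, Batf3 in 14 of the 15 in which it was tested and Nr4a2 in 13 of 16.

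**Figure D5:**
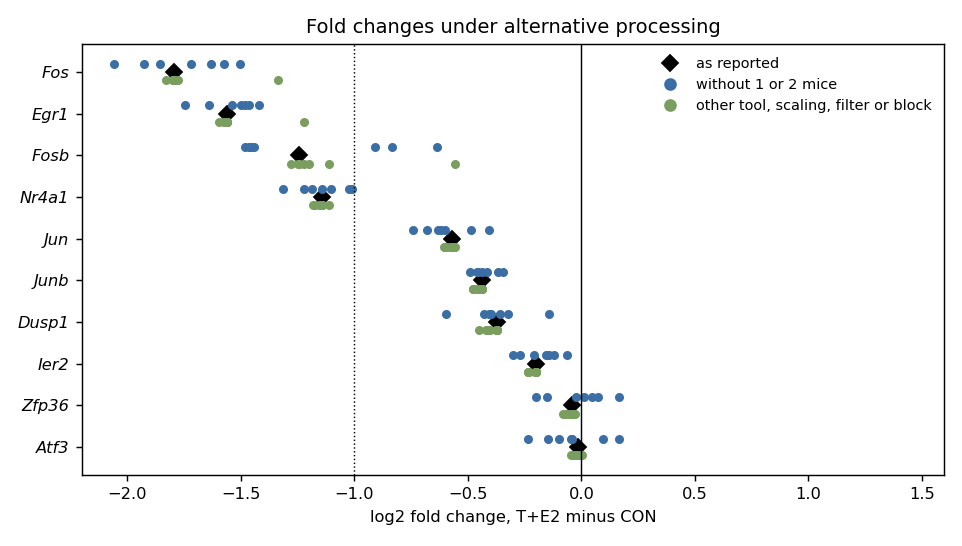
Log2 fold change (T + E2 minus CON) of each immediate early gene as reported (black diamond), in fits without 1 or 2 mice (blue) and with another tool, scaling, filter or replicate block (green); the dotted line marks -1. Fos, Egr1 and Nr4a1 stay to the left of -1 in each, Fosb spreads from -1.48 to -0.56, and Zfp36 and Atf3 fall on both sides of 0.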

How the data were processed

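RNA of 6 prostates (3 CON, 3 T + E2) was sequenced as paired-end TruSeq libraries. The deposited table holds, per gene and mouse, whole-number counts without normalization and FPKM, which the authors computed from count, gene length and library total. The submitters' processing notes name TopHat, Bowtie2 and HTSeq. Versions, annotation and strand setting are not given in the sources used here. Groups and replicate numbers came from the sample titles. The study gives 3 mice per group for sequencing, and the labels describe the replicates only as separate samples. The p-values set the group difference against the spread between these samples. No pair of mice agreed within sampling noise (chi-square per degree of freedom 16.7 to 36.4).

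Counts were fitted with edgeR 4.0.16 (R 4.3.3; TMM scaling, filterByExpr with minimum count 10 and total 15, quasi-likelihood test, Benjamini-Hochberg adjustment over 15580 genes). A DEG was a gene whose log2 fold change exceeded 1 in size at adjusted p below 0.05, the thresholds of the study's methods, which used DESeq2. CPM are TMM-scaled. The code of the fit was run on counts simulated from its own dispersions, with planted changes larger than that of any member. This checks the code and not how well changes of the size seen here are found. Genes named are the 10 members, genes of the AP-1, Egr, Nr4a, Dusp and Zfp36 lists, up to 4 called genes with the largest change of each other list, the 6 genes most correlated with the members, and genes of the other lists that passed the adjusted p, the last named after their values were seen. Members and lists were chosen with earlier results of these data known. No member transcript matched another gene at 90% identity over 300 bases or more. Alternatives were DESeq2 1.42.0, limma 3.58.1 (voom, or log2(FPKM + 0.1) and log2(FPKM + 1)), other scalings and filters, a replicate block and leaving out mice. Leaving out both mice numbered 2 was added after seeing the data. Coordinates are those of the table, and promoter sequences are from RefSeq. Some listed genes are not reported here.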

Additional observations from a re-analysis of the deposited data

How the results depend on the processing

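The table holds 3 mice per group, and counts of 14 to 128 for Fosb limit what could be shown for that gene. Without a threshold on the fold change, 3061 genes and 5 of the immediate early genes (lower) were called, and limma on log2(FPKM + 1) called 553 genes, against 1191 genes in the reported fit. In fits without 1 mouse the count was 972 to 1152 genes, with 3 immediate early genes called lower in each. The sign of Atf3 turned under limma-voom (0.0047), and without CON mouse 1 (0.17) or T + E2 mouse 1 (0.10). That of Zfp36 turned without CON mouse 1 (0.01), CON mouse 2 (0.075), T + E2 mouse 2 (0.05) or both mice numbered 2 (0.16). Neither passed in any of these, and the cause was not tested. Over the fits without 1 mouse, log2 fold changes ran from -2.06 to -1.57 for Fos, -1.75 to -1.46 for Egr1, -1.31 to -1.01 for Nr4a1, -1.48 to -0.64 for Fosb, -0.68 to -0.41 for Jun, -0.49 to -0.37 for Junb, -0.60 to -0.14 for Dusp1, -0.30 to -0.12 for Ier2, -0.15 to 0.17 for Atf3 and -0.20 to 0.075 for Zfp36. With the replicate block 1013 genes were called, 3 immediate early genes among them, at log2 fold changes of -1.80 for Fos, -1.57 for Egr1 and -1.15 for Nr4a1. In that fit Jun and Junb no longer passed the adjusted p (edgeR quasi-likelihood test with Benjamini-Hochberg adjustment, 0.0874 and 0.0519). Over all tested genes, mice with the same number hardly deviated together from their group means (correlations of -0.0516, 0.0275 and 0.0463). With 3 mice per group this cannot show whether the numbers pair them, and both mice numbered 2 carried seminal vesicle transcripts.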
